A study of Mus musculus with 32 samples.

Results

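The immunoglobulin variable segments are the gene pieces that encode most of the antigen-binding part of an antibody. They were taken as the rows of the deposited count table whose symbol begins with Ighv (heavy chain), Igkv (kappa light chain) or Iglv (lambda light chain) and that held 10 or more raw counts in at least 3 of the 32 libraries. This gave 140 segments of 222 such rows, among 35275 genes in all: 65 of 114 Ighv, 72 of 105 Igkv and 3 of 3 Iglv. The other 82 rows fell below the rule, and 18 of them were at 0 in every library. The 9 segments just inside, with exactly 3 libraries at 10 counts, held 59 to 132 counts in all (median 109). The 13 just outside, with 2 such libraries, held 45 to 169 (median 70). All counts are used in the choice of members, and 83 of the 140 reached 10 counts in no air library, whereas 21 met the rule in the 6 air libraries alone. Counts over the members between air and smoke therefore describe a set that was partly chosen by high values in smoke, and they support nothing by themselves.

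The study measured poly(A) RNA from whole lung of C57B/6 mice in 32 libraries, 8 groups and 2 experiments. In the first experiment, with an exposure of 5 months and no surgery, the groups were males in room air (3 libraries), females in room air (3), males in cigarette smoke (5) and females in cigarette smoke (5). The second experiment used females only, and all were exposed to cigarette smoke, and none breathed only room air: sham surgery at 3 months (3), ovariectomy at 3 months (3), sham surgery at 5 months (5) and ovariectomy at 5 months (5). Library totals lay between 13790052 and 24497332 counts. Smoke against air can therefore be compared in the first experiment only, and surgery and exposure time in the second only. The labels used here give no age of the mice and leave unstated whether replicate libraries were made from different animals, and p-values then measure only the spread between libraries, which may be technical.

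As background, each developing B cell joins 1 heavy chain segment to D and J pieces, and 1 light chain segment to a J piece, and its descendants keep that choice. A plasma cell, the antibody-secreting end stage, makes very large amounts of the joined transcript. A segment's counts in whole tissue are therefore known to depend on how many B lineage cells carry it, how many of them are plasma cells, and how large single clones are, and in bulk RNA fewer cells of a type and less RNA per cell cannot be told apart.

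The Ighv members lie on chromosome 12 between 113588267 and 116000461 (GRCm38), all on the minus strand. The Igkv members lie on chromosome 6 between 67555636 and 70704177, with 29 on the plus and 43 on the minus strand, and the Iglv members lie on chromosome 16 between 19085017 and 19260844. Segments of a family are near copies of each other, which sets how well short reads can be assigned. Of the 140 members, 137 matched a transcript of GENCODE M21, the same build, and all 137 are annotated there as variable segment genes. Only 22 of the 137 share no stretch of 50 bases with another V segment, 19 share more than 50% of such stretches, and 84 share no stretch of 100 bases. Reads of mutated or junction-spanning transcripts can also be lost or misplaced, and how the counting treated them is not given in the sources used here, so single segments are uncertain within their families.

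The kappa segments Igkv3-2 (chr6:70698468-70699067, plus strand) and Igkv3-4 (chr6:70671789-70672377, plus strand) are shown for 2 reasons. Igkv3-2 led the most libraries of any kappa segment, and Igkv3-4 held the highest share of its locus in any library among heavy and kappa segments. Their last 240 transcript bases are given 5′ to 3′ from GENCODE M21, with capitals at the 25 bases that differ between them (89.6% identical).
Igkv3-2: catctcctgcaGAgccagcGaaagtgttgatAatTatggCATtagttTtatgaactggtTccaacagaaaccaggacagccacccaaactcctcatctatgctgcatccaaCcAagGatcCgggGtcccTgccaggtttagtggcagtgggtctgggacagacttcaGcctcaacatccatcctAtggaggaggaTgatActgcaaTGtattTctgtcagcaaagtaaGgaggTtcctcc
Igkv3-4: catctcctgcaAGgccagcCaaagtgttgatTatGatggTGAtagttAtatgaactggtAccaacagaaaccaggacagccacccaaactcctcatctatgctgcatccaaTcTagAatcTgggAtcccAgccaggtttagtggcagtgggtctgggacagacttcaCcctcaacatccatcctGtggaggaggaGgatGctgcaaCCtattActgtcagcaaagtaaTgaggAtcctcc
The lambda segments Iglv1 (chr16:19085017-19085460, minus strand) and Iglv2 (chr16:19260401-19260844, minus strand) are shown as the closest pair read together below, with capitals at the 6 of 240 bases that differ (97.5% identical).
Iglv1: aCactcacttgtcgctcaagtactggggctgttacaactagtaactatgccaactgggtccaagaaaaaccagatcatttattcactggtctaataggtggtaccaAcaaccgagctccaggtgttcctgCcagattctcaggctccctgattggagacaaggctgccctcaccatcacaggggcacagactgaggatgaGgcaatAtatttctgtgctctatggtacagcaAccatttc
Iglv2: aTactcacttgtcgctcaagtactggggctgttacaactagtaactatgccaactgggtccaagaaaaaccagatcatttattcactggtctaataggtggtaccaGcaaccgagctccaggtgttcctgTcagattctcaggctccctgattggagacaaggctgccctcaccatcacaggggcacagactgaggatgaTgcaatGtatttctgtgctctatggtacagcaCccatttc

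The next segments are shown because results on heavy and kappa segments in the same library, below, turn on them. The last 120 transcript bases are given, and capitals mark the codons for tyrosine, tyrosine or phenylalanine, and cysteine that close the third framework region and precede the most variable loop. Ighv1-55 (chr12:115208095-115208527) and Ighv1-53 (chr12:115158403-115158835) belong to the same family and are 95.4% identical over the compared transcript.
Ighv1-55: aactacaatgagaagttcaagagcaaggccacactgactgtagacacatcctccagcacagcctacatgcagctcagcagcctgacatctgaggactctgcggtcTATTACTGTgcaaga
Ighv1-53: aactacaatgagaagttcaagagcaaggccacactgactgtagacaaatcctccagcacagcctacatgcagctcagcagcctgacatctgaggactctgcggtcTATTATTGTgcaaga
Ighv11-2 (chr12:114048241-114048704) with Igkv14-126 (chr6:67896177-67896642), and Ighv12-3 (chr12:114366526-114366954) with Igkv4-91 (chr6:68768568-68769103), are the pairs known from antibodies of B-1a cells, a B cell type of body cavities, against phosphatidylcholine.
Ighv11-2: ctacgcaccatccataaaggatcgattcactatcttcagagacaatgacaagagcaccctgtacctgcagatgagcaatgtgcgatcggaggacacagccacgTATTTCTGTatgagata
Igkv14-126: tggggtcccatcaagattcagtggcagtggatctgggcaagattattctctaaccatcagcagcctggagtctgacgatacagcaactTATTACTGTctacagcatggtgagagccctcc
Ighv12-3: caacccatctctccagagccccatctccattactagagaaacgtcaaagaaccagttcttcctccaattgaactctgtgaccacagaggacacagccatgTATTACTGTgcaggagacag
Igkv4-91: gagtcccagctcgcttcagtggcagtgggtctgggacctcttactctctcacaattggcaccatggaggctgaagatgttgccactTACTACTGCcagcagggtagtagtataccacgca
Ighv6-3 (chr12:114391712-114392169) and Igkv6-15 (chr6:70406469-70406992) led the same library.
Ighv6-3: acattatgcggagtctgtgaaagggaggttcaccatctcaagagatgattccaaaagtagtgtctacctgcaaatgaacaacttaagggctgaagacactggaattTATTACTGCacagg
Igkv6-15: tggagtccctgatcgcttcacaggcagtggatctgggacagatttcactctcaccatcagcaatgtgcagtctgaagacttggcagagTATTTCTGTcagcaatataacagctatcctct

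Summed over all rows of a locus, V segment RNA was higher in smoke than in air in both sexes. In CPM (counts scaled to library size, with TMM factors within each experiment), Ighv totals were 11.3, 13.4 and 7.70 in the female air libraries and 61.9, 85.8, 28.6, 25.8 and 33.4 in the female smoke libraries. Igkv totals were 21.2, 30.03 and 17.9 in female air and 188, 385, 75.9, 101 and 138 in female smoke. Every female smoke library lay above every female air library at both loci, while the smoke libraries themselves spread widely. The means were 4.37 times higher in smoke for Ighv (47.1 ± 25.98 against 10.8 ± 2.88, SD, n = 5 and 3) and 7.71 times for Igkv (177 ± 123 against 23.0 ± 6.29).

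In males, Ighv totals were 12.3, 16.4 and 11.5 CPM in air and 29.75, 32.7, 22.1, 51.1 and 19.5 CPM in smoke. Igkv totals were 28.4, 29.4 and 23.6 CPM in air and 72.7, 100.4, 53.9, 155 and 82.2 CPM in smoke. The male groups did not overlap at either locus, and the means were 2.32 times (Ighv) and 3.42 times (Igkv) higher in smoke. Iglv totals were 3.23 to 4.34 CPM in male air and 9.84 to 25.9 in male smoke without overlap, 4.13 times higher in the mean, whereas in females air (2.59 to 9.53) and smoke (9.28 to 64.5) overlapped, with a ratio of 3.63, or 2.18 without female smoke library 2. These totals are descriptions of each library and were given no test.

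The ratios were also computed without the leading segments. With the most abundant segment of each library left out, the ratio of smoke to air for Igkv was 6.25 in females and 3.10 in males, and for Ighv 4.33 and 2.13. For Iglv, where Iglv1 led all 32 libraries, the ratio without it was 1.52 in females and 2.23 in males.

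Totals of smoke-exposed females and males overlapped at all 3 loci, with female means 1.52 times (Ighv), 1.91 times (Igkv) and 1.52 times (Iglv) the male means. Without female smoke library 2 the Iglv ratio was 0.91, below 1. In air they overlapped too, with ratios of 0.80, 0.85 and 1.73.

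**Figure D1:**
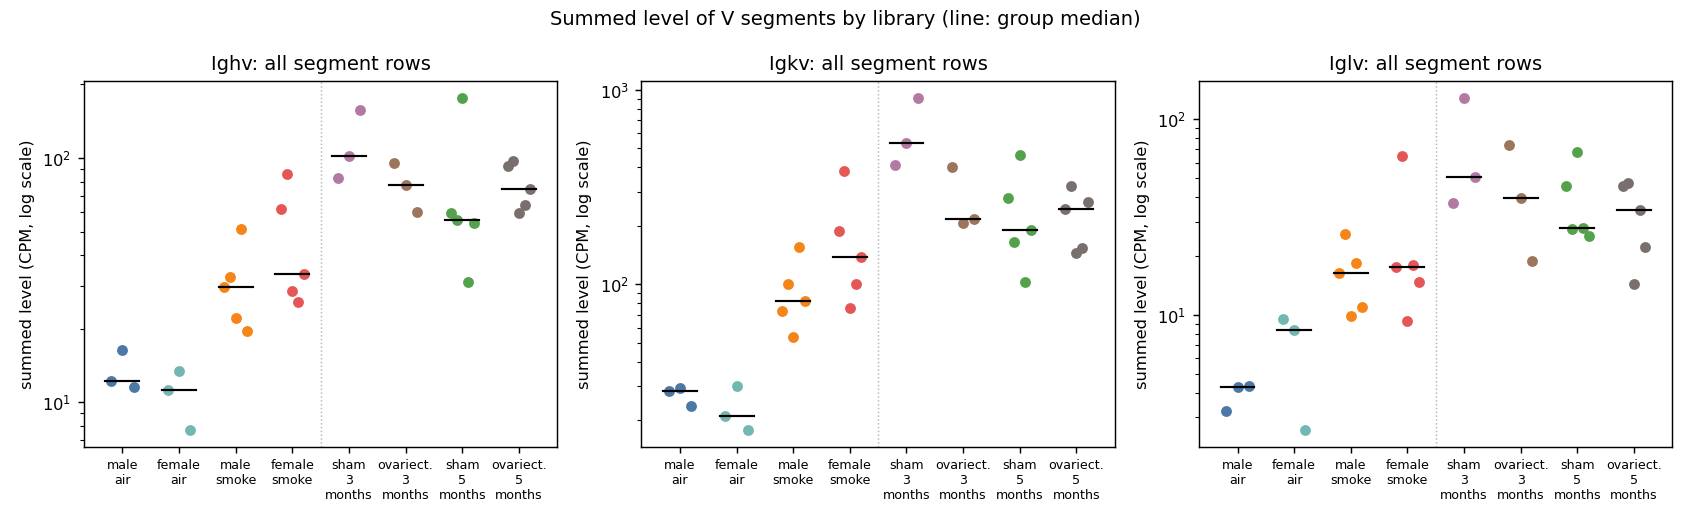
Summed level of all Ighv, Igkv and Iglv rows in each library (y axis, CPM on a log scale), by group (x axis). Each point is 1 library, lines are group medians, and the dotted line separates the experiments, which were scaled separately. In both sexes every smoke library of the first experiment lies above every air library for Ighv and Igkv.

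In the second experiment, Igkv totals were 408, 535 and 911 CPM in sham mice at 3 months and 400, 207 and 216 CPM in ovariectomized mice at 3 months, with no overlap. The highest, sham library 3, is the library in which 1 kappa segment held most counts. The ratio of ovariectomy to sham means was 0.44, and 0.66 without the leading segment of each library. Ighv totals overlapped between these groups (83.0, 102 and 157 against 95.6, 77.6 and 60.3 CPM). The 2 ovariectomized libraries with the lower Igkv totals, 2 and 3, held 502 and 1151 CPM of the liver gene Alb. Ovariectomized library 1 held 1.44 CPM of Alb, and the sham libraries 0.624 to 1.95 CPM. Whether this bears on the V totals was not tested.

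At 5 months the groups overlapped at all loci. Igkv totals ran from 103 to 464 CPM in sham mice (median 190) and from 145 to 321 CPM in ovariectomized mice (median 243). Ighv totals ran from 31.1 to 177 CPM (median 55.5) and from 59.5 to 97.4 CPM (median 74.4). From 3 to 5 months, Igkv means were 0.39 times as high in sham and 0.82 times in ovariectomized mice, and both pairs of groups overlapped. Without ovariectomized library 1 at 3 months, the second ratio was 1.07.

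The V totals were set beside the constant regions of the same chains. Igkv counts were 0.404 to 0.750 times the counts of Igkc, the kappa constant region, over all 32 libraries, with medians of 0.593 in air, 0.590 in the smoke libraries of the first experiment and 0.634 in the second experiment. Ighv counts were 0.076 to 0.164 times the summed heavy constant counts, with medians of 0.118, 0.116 and 0.120 in the same order. Kappa V counts exceeded lambda V counts in every library, by 2.22 to 17.9 times (median 6.44), as is usual in mice. The highest ratio was in sham library 3 at 3 months and the lowest in female air library 1.

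The class of the heavy chain was described beside these totals. Of heavy constant counts, Ighm (IgM) made up 84.8% to 94.2% in the 6 air libraries and 68.9% to 92.8% in the smoke libraries of the first experiment. These ranges overlapped, with medians of 89.51% in air and 80.87% in smoke. Igha (IgA) had medians of 9.702% in air and 6.926% in smoke of that experiment, also with overlapping ranges. In the second experiment Ighm made up 19.2% to 87.9%, and Igha 8.86% to 70.3%. That experiment has no air group, so its shares cannot be read as an effect of smoke. The lowest IgM share and the highest IgA share came from ovariectomized library 2 at 3 months. The highest IgM share of that experiment came from sham library 3 at 3 months.

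Usage of single segments was ranked by mean TPM over all libraries, a level per transcript length. The 5 most used Ighv members were Ighv1-55 (34.6 TPM), Ighv1-53 (33.4), Ighv1-26 (22.8), Ighv6-3 (12.6) and Ighv1-18 (11.6). Of these, 4 belong to Ighv1, the largest mouse heavy chain family, with 34 of the 65 members. The leading Igkv members were Igkv3-2 (160 TPM), Igkv3-4 (157), Igkv1-117 (54.3), Igkv6-15 (52.1) and Igkv10-96 (48.6). The 5 leading members held 33.9% of the mean Ighv TPM and 37.8% of the mean Igkv TPM.

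The order of such means does not carry over to a typical library. Igkv3-4 had a median of 21.1 TPM and a highest value of 4152 TPM, while Igkv10-96 had a higher median (24.52) and a highest value of 205. Over the libraries the coefficient of variation of the TPM had a median of 1.41 for Ighv members and 1.51 for Igkv members, and was highest for Igkv3-4 (4.66) and Ighv1-55 (2.68). Only 3 Ighv but 24 Igkv members had a count in all 32 libraries. Neighbours in the rank order overlapped widely between libraries.

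Of the 3 loci, only lambda, with 3 members, had the same leading segment in all 32 libraries. Iglv1 held 53.1% to 89.7% of Iglv counts (median 73.9%), Iglv2 1.9% to 32.7% and Iglv3 2.5% to 25.5%. In the first experiment the median share of Iglv1 was 64.4% in air and 80.2% in smoke, and the ranges overlapped (53.1% to 68.6% against 62.9% to 89.5%).

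Families were compared between air and smoke in the first experiment only. Ighv1 held 43.5% to 57.9% of Ighv counts in air (median 55.1%) and 45.2% to 73.2% in smoke (median 64.2%). Igkv3 held 3.91% to 10.5% of Igkv counts in air (median 5.90%) and 6.78% to 48.8% in smoke (median 16.4%). In the second experiment, which has no air group, Igkv3 held 6.71% to 78.5%, with its highest share in sham library 3 at 3 months. In smoke-exposed males the Igkv3 median was 10.5%, and in smoke-exposed females 28.6%, with overlapping ranges (from 6.8% and from 9.3% upward, to a highest share of 48.8% in females). In air and smoke of the first experiment, Igkv1 had medians of 16.5% and 9.73%, Igkv4 of 15.2% and 15.1%, and Igkv6 of 11.3% and 9.03%.

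Position along the locus was described with the midpoint of the members' span. The 42 Igkv members nearer to the J segments held 34.8% to 52.1% of kappa V counts in air (median 43.9%) and 46.3% to 79.9% in the smoke libraries of the first experiment (median 71.9%), with overlap. In the second experiment, without air, they held 39.1% to 87.4% (median 66.3%). Igkv3-2 and Igkv3-4 both lie in that nearer part, close to its J end. For Ighv, the 40 nearer members held 51.5% to 72.7% in air and 39.8% to 77.6% in the smoke libraries of the first experiment, with medians of 62.0% and 57.3%. Of Igkv counts, members on the plus strand, the orientation of the J segments, in which joining deletes the stretch between, held a median of 51.4% in air and 44.51% in smoke of the first experiment.

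Concentration in single segments was described by the share of the leading segment and by the effective number of segments, the number of equally used segments that would give the same chance that 2 random reads match. Intervals are 95% Wilson intervals and cover counting error only, since reads are not independent molecules. The leading Igkv segment held 5.77% to 14.6% of kappa V counts in the 6 air libraries (median 9.81%), 5.68% to 39.0% in the 10 smoke libraries of the first experiment (median 21.2%) and 7.06% to 73.3% in the 16 libraries of the second (median 22.2%). It reached 20% in 0 of 6 air libraries, in 6 of 10 smoke libraries of the first experiment and in 10 of 16 libraries of the second. The effective number of Igkv segments was 21.1 to 41.8 in air (median 27.3), 5.82 to 35.6 in smoke of the first experiment (median 12.8) and 1.85 to 28.8 in the second (median 13.5).

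The groups of the first experiment overlapped in this measure because of single smoke libraries. Female air libraries had effective Igkv numbers of 38.2, 26.3 and 27.7, and female smoke libraries had 5.82 to 11.3 apart from library 3, at 35.6. Male air libraries had 21.1 to 41.8 and male smoke libraries 9.11 to 31.8. Air libraries held 304 to 614 Igkv counts and smoke libraries of the first experiment 974 to 7381, and a Simpson index corrected for sample size was used for that reason. At an equal depth of 304 counts, the expected number of Igkv segments seen had medians of 55.9 in air and 50.8 in smoke of the first experiment, with overlapping ranges.

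For heavy chains, the leading Ighv segment held 9.12% to 23.7% in air (median 12.96%) and 9.02% to 34.0% in smoke of the first experiment (median 15.7%). It reached 20% in 2 of 6 air libraries, 3 of 10 smoke libraries of the first experiment and 4 of 16 of the second. In the first experiment the effective number of Ighv segments had medians of 22.4 in air and 15.9 in smoke, with overlapping ranges (12.9 to 27.4 and 7.84 to 31.0). In the second it was 3.44 to 31.04.

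**Figure D2:**
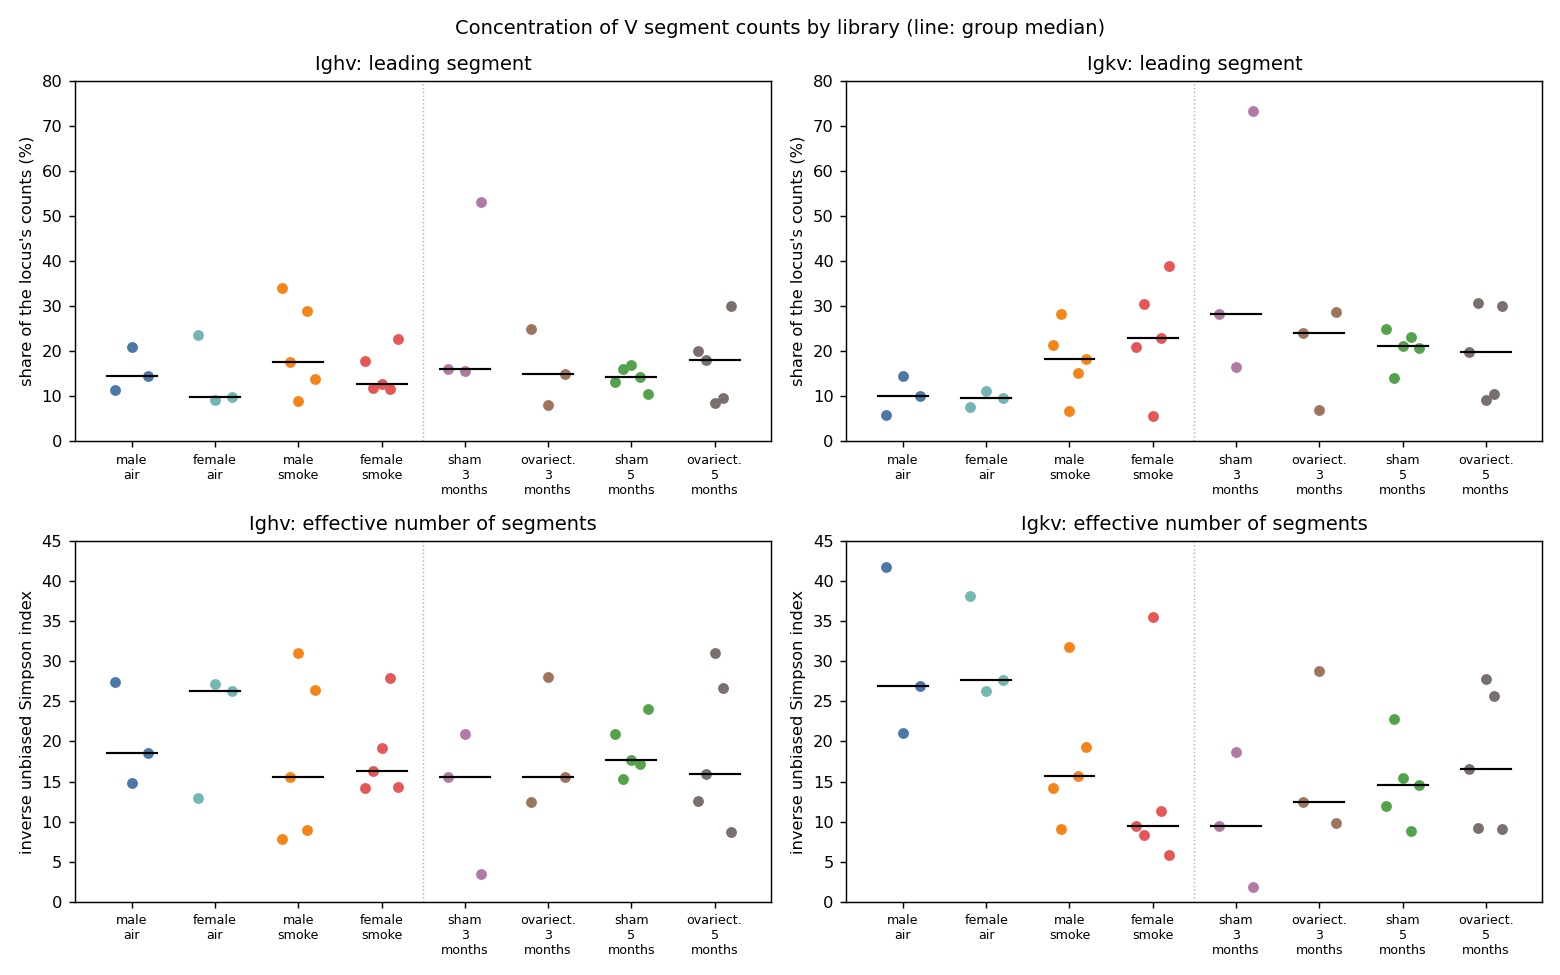
Share of the locus's counts held by the leading segment (top row, %) and effective number of segments (bottom row, inverse unbiased Simpson index) for Ighv (left) and Igkv (right), by group on the x axis. Points are libraries and lines group medians. Sham library 3 at 3 months stands apart at both loci, at 53.1% for Ighv and 73.3% for Igkv.

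Which segment led changed from library to library. There were 16 different Ighv leaders and 16 different Igkv leaders over the 32 libraries. Ighv1-26 led 7 libraries (2 air, 5 smoke) and Ighv1-53 also 7 (all smoke), while 12 segments led 1 library each. Igkv3-2 led 9 libraries, and no other kappa segment led more than 3.

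The libraries led by Igkv3-2 were all from smoke-exposed females. They were female smoke libraries 1, 2 and 5, sham library 1 and ovariectomized library 3 at 3 months, sham libraries 3 and 5 and ovariectomized libraries 2 and 5 at 5 months. In these its share ran from 20.7% to 39.0%. In the 5 male smoke libraries its share was 3.58%, 0.640%, 1.75%, 4.17% and 1.52%, and in the 6 air libraries it was 0.658% to 1.24%. Its share was also low in other smoke-exposed females, such as 0.924% in sham library 1 at 5 months and in ovariectomized library 2 at 3 months.

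The most concentrated library was sham library 3 at 3 months. Igkv3-4 held 10711 of 14608 kappa V counts there (73.3%, interval 72.6% to 74.0%), and Ighv1-55 held 1334 of 2510 heavy V counts (53.1%, interval 51.2% to 55.1%). In the other 31 libraries, Igkv3-4 reached at most 13.04% (male smoke library 2) and Ighv1-55 at most 16.1% (sham library 2 at 5 months). The same library had the highest Igkv total, and its Ighm level of 1711 CPM was the highest of the 3 sham libraries at 3 months (329 to 1711 CPM, median 419).

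A single combination of leading segments recurred. Ighv1-53 and Igkv3-2 led the same 6 libraries: female smoke 2 and 5, sham 3 and 5 at 5 months, and ovariectomy 2 and 5 at 5 months. There Ighv1-53 held 10.6% to 29.96% of Ighv counts and Igkv3-2 20.7% to 39.0% of Igkv counts, and every other combination led 1 library. The 2 segments were not always high together: in male smoke library 4 Ighv1-53 held 28.95% and Igkv3-2 4.17%. Both were the segments that led most libraries of their locus, with Ighv1-26 level with Ighv1-53, and no test was made.

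Other libraries had a leading segment of both chains at its own highest share. In ovariectomized library 1 at 3 months, Ighv6-3 held 24.9% and Igkv6-15 24.04%, against medians of 1.59% and 2.78% over all libraries. In male smoke library 1, Ighv1-18 held 34.0% (136 of 400 counts, interval 29.5% to 38.8%) and Igkv6-25 21.5%, against medians of 1.92% and 0.504%. In male smoke library 2, Ighv1-52 held 17.7% and Igkv4-55 28.3%. In all, both leaders were at their own maximum in 8 of 32 libraries, including 2 of the 6 air libraries, whereas only the heavy leader was in 7 and only the kappa leader in 6.

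The 2 pairs known from B-1a cells were looked at after values of these segments had been seen. Ighv11-2 and Igkv14-126 both had their highest share in female smoke library 1, with 17.9% of Ighv (206 counts) and 19.6% of Igkv counts (684). Their next highest shares were 6.87% and 6.79%, in different air libraries, and their medians 1.31% and 1.07%. Ighv12-3 was highest in sham library 1 at 3 months, with 16.01%, where Igkv4-91 held 10.9%, and second in ovariectomized library 5 at 5 months, with 10.2%, where Igkv4-91 held 9.07%. Igkv4-91 was highest in male smoke library 5 (18.3%), where Ighv12-3 held 6.04% (18 counts), and in female air library 3 it held 9.54% with Ighv12-3 at 0 of 131 heavy counts. RNA from bulk tissue does not show which heavy and light chains were in the same cell.

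**Figure D3:**
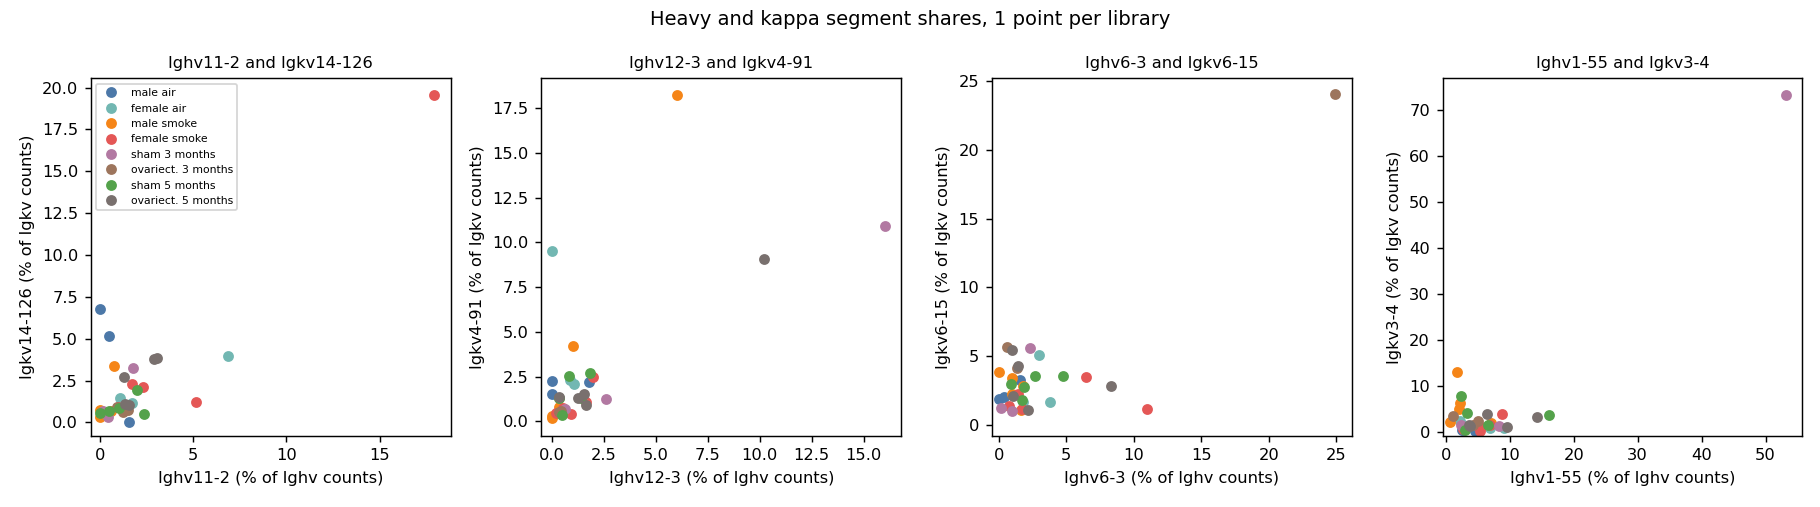
Share of Ighv counts held by a heavy segment (x axis, %) against the share of Igkv counts held by a kappa segment (y axis, %) for 4 pairs, 1 point per library, coloured by group. In 3 panels a single library holds the highest value on both axes, and for Ighv12-3 and Igkv4-91 no library does. The pairs were chosen after their values had been seen, so this number supports nothing by itself. Ighv1-53 and Igkv3-2, not shown, had their highest shares in different libraries.

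**Figure D4:**
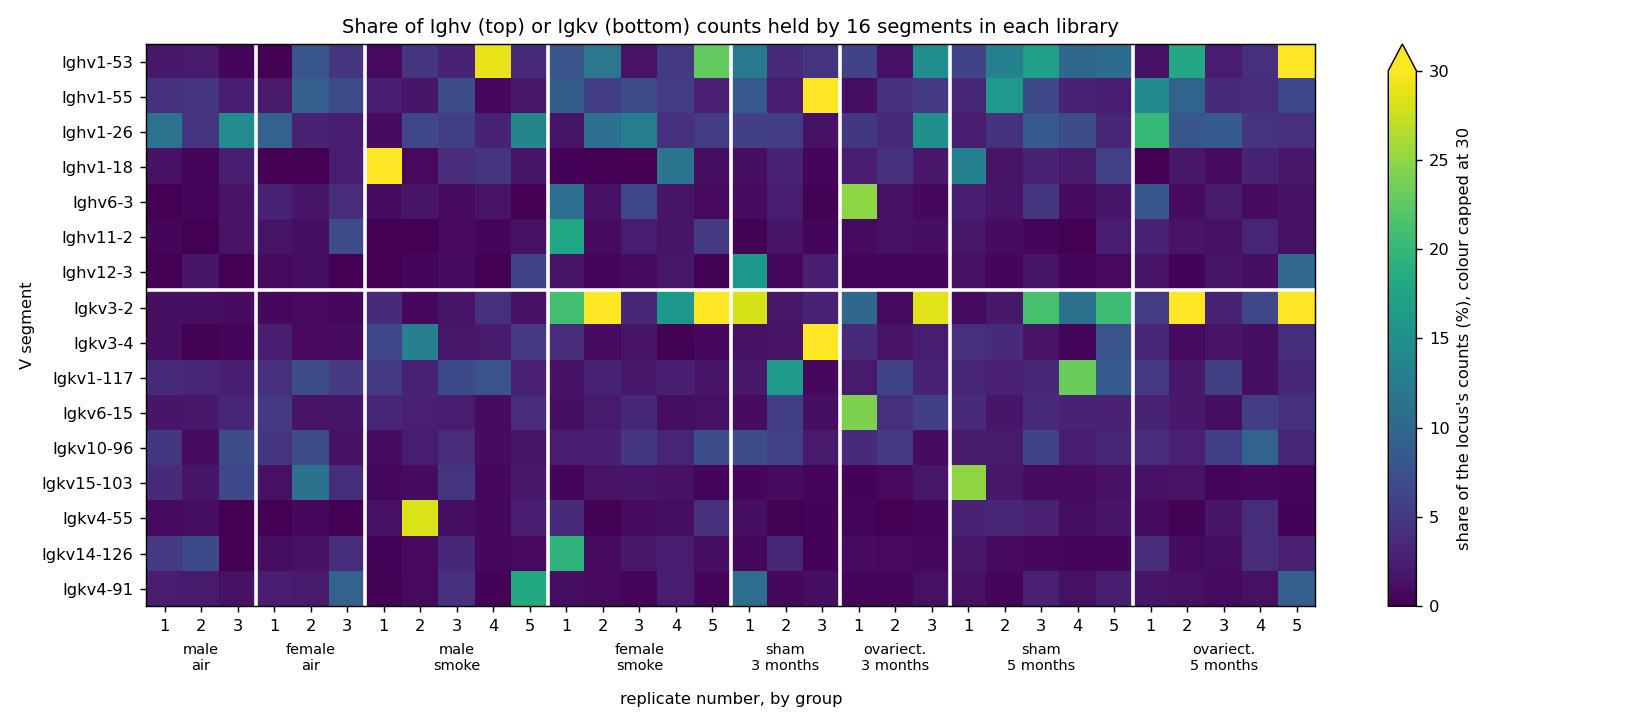
Share of the locus's counts (colour, %, capped at 30) held by 7 Ighv (top) and 9 Igkv (bottom) segments (y axis) in each library (x axis, replicate numbers within groups). Igkv3-2 is high in many libraries of smoke-exposed females, and most other segments are high in 1 or 2 libraries each.

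The effect of smoke on single segments in females was tested over all 16361 genes of the first experiment with edgeR's quasi-likelihood test, calling genes at a Benjamini-Hochberg adjusted p under 0.05. Of the 140 segments, 81 passed the filter on low counts. Of these 15 rose and 0 fell, against 4.52% of all genes tested that rose and 3.18% that fell (7.7% in either direction). They were 3 of 25 tested Ighv, 12 of 53 Igkv and 0 of 3 Iglv members. The median log2 fold change of the 81 was 2.31, beside −0.01 over all genes, and 79 were above 0 (all but Ighv7-1 and Igkv2-109). The rule for members and the filter were partly met through high values in smoke. The median and the counts in this paragraph therefore support nothing by themselves. The groups did not overlap for 25 that were higher and 0 that were lower in smoke, against 8.04% and 6.47% of all genes, and 52 had an unadjusted p under 0.05, against 21.3%. DESeq2 called 31. Without female air library 1 or 2 the count was 7 in each case, and without female air library 3 it was 2 (Ighv1-78 and Igkv3-2).

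The largest fitted change was in Igkv3-2. Its levels were 0.146, 0.245 and 0.118 CPM in the female air libraries (3, 5 and 2 counts) and 39.3, 117, 2.58, 16.1 and 53.8 CPM in the female smoke libraries. The groups did not overlap, and smoke library 3 was far below the other smoke libraries. The log2 fold change was 8.001 (SE 1.51, adjusted p = 0.00728). Here and below, SE is the absolute log2 fold change divided by the square root of the test's F statistic. It is therefore approximate, and not a standard error estimated for the coefficient itself. The call held in each fit that left out a library, with an adjusted p of at most 0.0497 (without female air library 3), and was lost in the fit of the 2 female groups alone (0.0613).

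Ighv1-78, a member of the Ighv1 family, had 0 counts in all 3 female air libraries and 0.269, 1.88, 0.398, 0.873 and 0.798 CPM in smoke (72 counts in all). Taking 3 counts over the air group as the limit, it was at least 16.8-fold higher in smoke (adjusted p = 0.00701). This call held without each library in turn.

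Kappa segments of other families rose too. Igkv6-20 was at 0.389, 0 and 0.118 CPM in air and 1.56, 5.68, 1.19, 3.13 and 12.53 CPM in smoke, a 27.1-fold rise (log2 fold change 4.76, SE 1.01, adjusted p = 0.0087). Without female air library 3 its adjusted p was 0.066. Igkv8-19 was at 0.194, 0.342 and 0 CPM in air and 0.484, 2.55, 2.65, 1.67 and 1.04 CPM in smoke, 8.76-fold (log2 fold change 3.13, SE 0.72, adjusted p = 0.00944, and 0.0636 without female air library 3). Igkv6-15 was at 1.07, 0.489 and 0.294 CPM in air and at 1.16 to 8.54 CPM in smoke, 5.26-fold (adjusted p = 0.0163, and up to 0.107 without female air library 2 or 3). In all 3 segments each smoke library lay above each air library. Over all 17 alternative fits of each, the call was lost in 3 for Igkv6-20, 1 for Igkv8-19 and 5 for Igkv6-15. The highest adjusted p for Igkv6-15 in these edgeR and DESeq2 fits was 0.157.

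Among the most used members, Igkv10-96 rose 5.44-fold, from 1.12 ± 0.967 to 6.19 ± 3.43 CPM (adjusted p = 0.0269, and up to 0.106 without female air library 1 or 3). Ighv1-26 (0.546 ± 0.466 to 3.39 ± 3.51 CPM, adjusted p = 0.0718) and Iglv1 (4.18 ± 2.17 to 20.8 ± 19.7 CPM, adjusted p = 0.0729) did not pass. Neither did Ighv1-53 (0.476 ± 0.549 to 4.90 ± 4.13 CPM, adjusted p = 0.233) or Igkv1-117 (1.30 ± 0.736 to 4.09 ± 3.89 CPM, adjusted p = 0.198).

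In males, 7 of the 81 segments rose and 0 fell with smoke, against 4.93% of all genes tested that rose and 5.33% that fell (10.3% in either direction). They were 1 Ighv and 6 Igkv members, and the median log2 fold change was 1.59, beside 0.01 over all genes, with 72 of 81 above 0. The limit from the choice of members, given above for females, applies to these values too. The groups did not overlap for 14 that were higher and 0 that were lower in smoke, against 8.61% and 8.21% of all genes, and 23 had an unadjusted p under 0.05, against 23.2%. DESeq2 called 14. None of the 7 was among the 15 called in females. The count was 2, 0 and 1 without male air library 1, 2 and 3, and 4 without male smoke library 1 or 4. The 2 without male air library 1 were Igkv12-41, higher, and Igkv17-121, lower.

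The male air libraries held 0.469, 0.470 and 0.594 CPM of Igkv12-46, and the male smoke libraries 0.967, 1.87, 1.27, 2.60 and 3.67. The groups did not overlap, and the rise was 4.03-fold (log2 fold change 2.01, SE 0.55, adjusted p = 0.0223). Without male air library 1, 2 or 3 or smoke library 5 its adjusted p lay between 0.0646 and 0.0887. Igkv3-4 was at 0.352, 0.0587 and 0.119 CPM in air and 4.61, 13.1, 1.05, 3.38 and 4.07 CPM in smoke, 28.5-fold (log2 fold change 4.83, SE 1.26, adjusted p = 0.0274). Without any of the 3 air libraries that call was lost, with adjusted p values of 0.0634, 0.109 and 0.118. Over all 17 alternative fits of each, the call was lost in 7 for Igkv12-46 and in 5 for Igkv3-4. The highest adjusted p in these edgeR and DESeq2 fits was 0.181 and 0.200.

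The other named male calls rested on few counts in air. Igkv4-57-1 had 0, 2 and 3 counts in air, and 6.47, 2.86, 0.387, 0.637 and 0.525 CPM in smoke (adjusted p = 0.0281). Igkv6-17 was at 0.176, 0.0587 and 0.535 CPM in air and 0.387 to 2.60 CPM in smoke, with overlap (adjusted p = 0.0292). Ighv1-80 was at 0.117 to 0.176 CPM in air and 0.262 to 2.98 CPM in smoke (adjusted p = 0.0392). Each of these calls was lost without at least 3 of the 8 male libraries taken one at a time: male air 1 and 2 for all of them, male air 3 and male smoke 1 for Igkv4-57-1, male smoke 4 for Igkv6-17, and male air 3, male smoke 1 and male smoke 2 for Ighv1-80 (adjusted p up to 0.103, 0.147 and 0.134). Over all alternative fits, Igkv4-57-1 lost its call in 9 of 16, and Igkv6-17 and Ighv1-80 in 7 of 17 each. The highest adjusted p in these edgeR and DESeq2 fits was 0.118, 0.208 and 0.134.

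**Figure D5:**
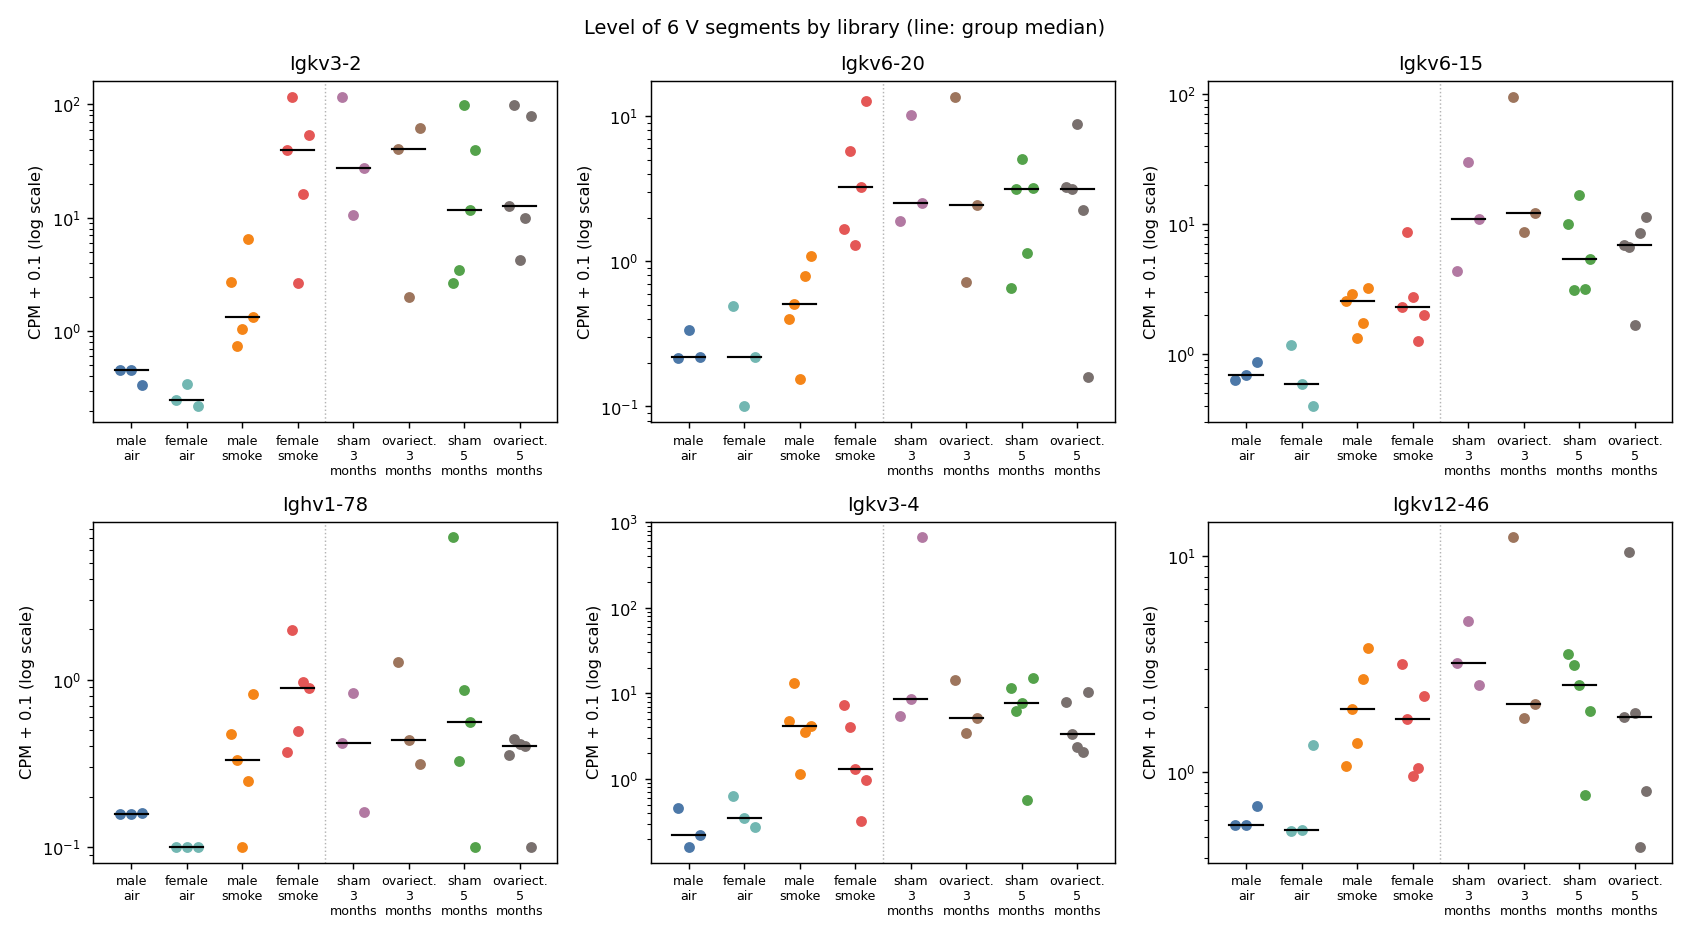
Level of 6 segments (y axis, CPM plus 0.1 on a log scale) by group (x axis). Points are libraries, lines group medians, and the dotted line separates the experiments, which were scaled separately. Igkv3-2 lies at 0.118 to 0.352 CPM in the 6 air libraries and at 2.58 to 117 CPM in the female smoke libraries.

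The same segments are set side by side in both sexes here, with each sex's own air controls. Igkv3-2 had a log2 fold change of 8.001 (SE 1.51) in females. In males it was 2.93 (SE 1.55, adjusted p = 0.289). For Igkv3-4 the female value was 3.05 (SE 1.13, adjusted p = 0.130) and the male value 4.83 (SE 1.26). Igkv17-121, called in females (log2 fold change 2.36, SE 0.64, adjusted p = 0.0261, and up to 0.147 without female air library 2 or 3 or smoke library 2), had −1.35 (SE 0.55, adjusted p = 0.130) in males.

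The difference between the sexes was tested as an interaction. Of the 81 segments, 0 passed, against 0.00611% of all genes, with 11 at an unadjusted p under 0.05, where the share over all genes was 5.75%. The DESeq2 Wald test called 1, Igkv17-121. Igkv3-2 had an interaction of 5.07 on the log2 scale (SE 2.89, adjusted p = 0.881), and Igkv17-121 of 3.71 (SE 0.84, adjusted p = 0.391).

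Between smoke-exposed females and males, 0 segments were called, against 0.189% of all genes (0.055% higher and 0.134% lower in females), with 23 at an unadjusted p under 0.05 (7.74% over all genes). Groups did not overlap for 3 that were higher and 0 that were lower in females, against 0.593% and 1.01%. DESeq2 called 4, all higher in females: Igkv3-2, Igkv6-20, Igkv10-96 and Ighv11-2. The shares above are those of edgeR, and none is given for DESeq2. Igkv3-2 was at 45.8 ± 44.6 CPM in females (n = 5) and 2.38 ± 2.41 CPM in males (n = 5), with the lowest female library (2.58) below the highest male library (6.47). Its log2 difference was 4.23 (SE 0.87, adjusted p = 0.139), and without female smoke library 3 it was the only segment called. Without male smoke library 2 the only one was Igkv8-16. Igkv6-20 was at 1.19 to 12.53 CPM in females and 0.0553 to 0.984 CPM in males without overlap (log2 difference 3.29, SE 0.72, adjusted p = 0.136).

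In air, 0 segments differed between the sexes, against 0.177% of all genes (0.0489% higher and 0.128% lower in females), with 3 at an unadjusted p under 0.05 (9.27% over all genes). Groups did not overlap for 5 that were higher and 5 that were lower in females, against 8.95% and 7.73%. DESeq2 called 1, Igkv17-121, which was lower in females. It was at 0.367 ± 0.314 CPM in female and 2.40 ± 1.88 CPM in male air libraries (log2 difference −2.66, SE 0.68, adjusted p = 0.144 in edgeR), and edgeR called it when male air library 1 was left out.

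Families pool reads that cannot be split between near copies, so families were also tested, with all rows of a family summed. Of 29 families tested, 9 rose and 0 fell with smoke in females, and all 29 had a positive log2 fold change (median 2.06, beside −0.01 over all features in that fit). Of single genes tested, 4.52% rose and 3.18% fell, as given above. Igkv10 rose 4.02-fold (1.78 ± 0.816 to 7.17 ± 3.30 CPM, adjusted p = 0.00554), Igkv12 3.25-fold and Igkv3 50.2-fold (1.28 ± 0.573 to 65.2 ± 71.9 CPM, adjusted p = 0.012, and up to 0.0752 without female air library 2 or 3). Most of the mean Igkv3 level in female smoke came from Igkv3-2, so the family's rise is not separate from that segment's. Ighv1 rose 5.23-fold (5.51 ± 1.89 to 28.9 ± 19.7 CPM, adjusted p = 0.0194, and up to 0.109 without any 1 female air library), and Igkv17, Igkv4, Igkv9, Igkv6 and Ighv2 rose too. The count was 4 without female air library 2 and 2 without female air library 3.

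In males, 4 of 29 families rose and 0 fell, with a median log2 fold change of 1.40 beside 0.01 over all features, and against 4.93% and 5.33% of single genes: Igkv2 (3.98-fold), Igkv12 (2.69-fold), Igkv4 (5.14-fold) and Igkv9 (2.66-fold). Igkv4, the kappa family with the most members (18), averaged 3.98 ± 1.61 CPM in air and 20.5 ± 12.3 CPM in smoke (adjusted p = 0.0199, and up to 0.0958 without male air library 2 or 3). Igkv12, Igkv4 and Igkv9 were called in both sexes. Leaving out male air library 2 gave 0 families, and leaving out male air library 3 gave 1. In each of the other 8 comparisons 0 families were called. Families at an unadjusted p under 0.05, with the share of single genes, were as follows. Of 29 families they were 8 for sex in smoke (7.74%), 4 for the sex by smoke interaction (5.75%) and 1 for sex in air (9.27%). Of 31 families, surgery gave 3 at 3 months (9.29%) and 1 at 5 months (15.5%). Time gave 5 in sham (8.65%) and 1 in ovariectomized mice (9.83%), and the interaction of surgery and time gave 2 (5%).

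In the second experiment, 135 of the 140 segments were tested among 16874 genes, and 0 were called in any comparison of surgery or time. For ovariectomy against sham at 3 months, 14 had an unadjusted p under 0.05 (9.29% over all genes), the median log2 fold change was −0.44, and 0 genes of the whole table were called. The groups did not overlap for 13 segments that were lower and 1 that was higher after ovariectomy, against 7.72% and 7.5% of all genes. Igkv3-4 was at 5.33, 8.36 and 668 CPM in sham and 14.2, 3.37 and 5.08 CPM in ovariectomized libraries (log2 difference −4.95, SE 1.61, adjusted p = 0.368), and 2 of the 3 sham libraries lay within the range of the ovariectomized ones.

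For ovariectomy against sham at 5 months, 11 segments had an unadjusted p under 0.05, where 15.5% of all genes did, and 1.36% of all genes were called (0.587% higher and 0.776% lower). Groups did not overlap for 0 segments in either direction, against 1.93% of all genes in each. The median log2 fold change of the segments was 0.02. Igkv3-2 was at 2.57, 3.38, 98.6, 11.7 and 39.3 CPM in sham and 12.6, 98.3, 4.12, 9.81 and 79.1 CPM in ovariectomized libraries. High and low libraries occurred in both groups (log2 difference 0.36, SE 1.18, adjusted p = 0.920).

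From 3 to 5 months in sham mice, 17 segments had an unadjusted p under 0.05 (8.65% over all genes), with a median log2 fold change of −0.48, and 0.00593% of all genes were called, all lower. Groups did not overlap for 0 segments that were higher and 3 that were lower at 5 months, against 3.35% and 3.81%. DESeq2, for which no share over all genes is given, called 2 that were lower at 5 months, Igkv16-104 and Igkv9-120. Igkv16-104 was at 5.88 ± 4.27 CPM at 3 months and 0.982 ± 0.659 CPM at 5 months, without overlap (log2 difference −2.57, SE 0.52, adjusted p = 0.138 in edgeR). In ovariectomized mice 10 segments had an unadjusted p under 0.05 (9.83% over all genes), the median was −0.11, and DESeq2 called 0. Here 0.0178% of all genes were called, all lower, and groups did not overlap for 0 segments that were higher and 1 that was lower, against 2.7% and 2.84%. For the interaction of surgery and time the number was 10 (5.0% over all genes), again with 0 by DESeq2. DESeq2 also called 0 in both comparisons of surgery.

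Antibody genes other than V segments were taken from lists chosen with results of these data known. In females, 3 of 8 tested constant chain genes rose with smoke and 0 fell, where 4.52% of all genes rose: Igkc 7.64-fold, Ighm 4.15-fold and Ighg2b 24.8-fold. In males 1 of 8 rose (Igkc, 3.65-fold), where 4.93% of all genes did. The same shares apply to the lists that follow. Of 10 plasma cell genes, Igj, which links the units of IgM and IgA, rose in both sexes, from 6.57 ± 0.835 to 108 ± 78.8 CPM in females and from 5.64 ± 4.50 to 57.5 ± 27.4 CPM in males, and Tnfrsf17, a survival receptor of plasma cells, rose in females. The plasma cell medians were 0.07 in females and 0.24 in males.

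Of 10 B cell genes tested, 1 rose in females (Cd22, 1.501-fold) and 0 in males, with median log2 fold changes of 0.57 and 0.47. The list's summed level was 66.2 to 136 CPM in female air and 122 to 188 CPM in female smoke, and 103 to 164 and 150 to 221 CPM in the male groups. Cxcl13, a chemokine that draws B cells, rose in both sexes, by 3.51 and 3.56 times in females and males. The part of B cell or plasma cell numbers in the V segment values was not tested.

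Markers of other tissue that a lung sample can include were set beside these values. The precursor or thymus list, with the recombinase gene Rag1, summed to 0 to 1.2 CPM in every group. Of the lymph node stroma list, Glycam1 and Madcam1 reached at most 2.12 and 0.21 CPM in any library. Of the 2 genes of this list that were tested, Cxcl13 was called higher with smoke in both sexes. The other was not called, and separate levels of the remaining genes are not given here. Whether lymph node tissue was present was not tested. The list as a whole, which includes Cxcl13, was not near 0. It summed to 91.3 to 100.4 CPM in male air and 67.0 to 105 CPM in male smoke. In females it summed to 79.4 to 94.1 CPM in air and 63.7 to 102 CPM in smoke of the first experiment. The liver gene Alb was over 100 CPM in 7 libraries, and it was called lower in male smoke. Among the 7 were male air 1, female air 2, and ovariectomized libraries 2 and 3 at 3 months. Without those 7 libraries the counts of segments called were 7 in females and 2 in males, with no share over all genes given for that fit. Lung genes were high in all groups, with a summed level of at least 38076 CPM.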

How the data were processed

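Poly(A) RNA was extracted with Trizol and made into libraries with the NEBNext Ultra 2 kit, per the labels' protocols. FastQC, GRCm38 and mm10 are named in the submitters' processing notes. Which aligner and which counter were used is not given in the sources used here. The authors deposited raw counts per gene (35275 genes) and a normalized table whose unit its header does not name. In the latter, 100% of the deposited values equal counts over gene length rescaled to a common sum (relative tolerance 1e-05), so they are TPM. A single segment row that is no member lacks TPM.

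Members and lists were chosen with earlier results of these data known. Named segments were the 5 Ighv, 5 Igkv and 3 Iglv members with the highest mean TPM, up to 5 called members with the smallest p per comparison and direction, and the 12 with the highest share in any library. Others were chosen after their values were seen. Counts were fitted per experiment with edgeR 4.0.16 in R 4.3.3 (filterByExpr, TMM, quasi-likelihood F test, 4 groups sharing the dispersion, Benjamini-Hochberg over all genes). The script was checked on simulated data. Alternatives were RLE factors, other filters, other sets of libraries, a replicate block, DESeq2 1.42.0, scaling without immunoglobulin rows, and leaving out each library. Leaving out libraries over 100 CPM of Alb was chosen after seeing the data. No 2 libraries of a group were near-copies: at most 2.88% of their genes with a count had equal counts. Sequences were read from GENCODE M21 transcripts. Library totals of 13790052 to 24497332 counts set the precision, together with 3 or 5 libraries per group. The second experiment holds no air group, and levels set across experiments were scaled separately.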

Additional observations from a re-analysis of the deposited data

Results flagged for a closer look

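Samples far from the others of their group were looked for in 116 groups of 5 values, and 27 stood apart (23.3%). Chance marks about 1 in 20 such groups, but the flagged share cannot be set against that rate here. Of the 22 named segments tested, 12 met the rule of the highest share in any 1 library. A library that stands apart was thus partly built into the choice, and values of 1 library are not independent. No explanation was tested.

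In sham library 3 at 5 months the Ighv total was 177 CPM (others 31.1 to 59.3), Ighv1-53 29.9 CPM, Ighv1-26 15.07 CPM, Ighv6-3 8.47 CPM, Igkv10-96 28.4 CPM (others 2.35 to 6.08) and Igkv8-19 4.67 CPM, each the highest of its group. In female smoke library 2 the Iglv total was 64.5 CPM (others 9.28 to 18.04), with Iglv1 at 55.2, Iglv2 at 7.503, Igkv1-117 at 10.99, Igkv6-15 at 8.54 and Igkv15-103 at 6.04 CPM. Female smoke library 3 had an effective number of Igkv segments of 35.6, above 5.82 to 11.3 in the others.

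Among male smoke libraries, library 3 was highest for Ighv1-55 (1.55 CPM), library 4 for Ighv1-53 (14.8 CPM) and Igkv1-117 (12.01 CPM), library 1 for Ighv1-18 (10.11 CPM), and library 2 for Ighv1-80 (2.98 CPM) and Igkv4-55 (28.4 CPM, others 0.664 to 1.84). In female smoke, library 1 was highest for Ighv6-3 (6.78 CPM) and library 4 for Ighv1-18 (2.98 CPM).

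In sham library 1 at 5 months Igkv15-103 reached 69.6 CPM (others 0.861 to 4.07) and Ighv1-78 7.01 CPM. In ovariectomized libraries at 5 months, Ighv6-3 was 7.696 CPM in library 1, Igkv12-46 10.4 CPM in library 2 and Igkv10-96 14.5 CPM in library 4, each the highest, and Ighv1-78 was at 0 CPM in library 5, the lowest (others 0.254 to 0.341).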

How the results depend on the processing

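With smoke in females, 15 segments were called, 7 in a fit of the compared groups only, 31 by DESeq2 and 7 without the libraries high in Alb. In males the 7 became 1 with all 32 libraries in 1 fit, 14 by DESeq2 and 2 without those libraries. Where the count was 0, DESeq2 gave 1 for sex in air, 4 for sex in smoke, 1 for the sex by smoke interaction and 2 for time in sham mice, where no filter gave 1 and all 32 libraries 1. Leaving out each library gave 2 to 17 segments and 2 to 11 families in smoke-exposed females, 0 to 6 and 0 to 5 in males, and 0 to 1 of both for sex in air and sex in smoke, and 0 to 1 families for the interaction. Same-numbered libraries had mean correlations of their deviations near 0 (0.02 and −0.04), so numbers do not pair them. The fit with a replicate block called 16 (10 shared), 6 and, for sex in smoke, 1 segment. Other alternatives stayed within 1.5 times of the count. The alternative counts have no share over all genes beside them, so their sizes cannot be compared as evidence. Over the alternative fits of single named segments, 122 kept direction and call, 45 lost the call and 0 reversed.

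Counting families in place of segments, the group median of the leading share was, for Ighv, 64.5% (sham, 3 months), 49.1% (ovariectomy, 3 months), 67.1% (sham, 5 months), 57.02% (ovariectomy, 5 months), 57.7% (male air), 51.1% (female air), 65.25% (male smoke) and 60.6% (female smoke), and for Igkv 42.5%, 35.1%, 26.1%, 27.2%, 17.6%, 17.4%, 31.8% and 33.7% in the same order of groups. Depth limits the air libraries most: with 131 to 280 Ighv counts and 304 to 614 Igkv counts, a segment at 0 there may be present below the limit of detection.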
